A study of Rattus norvegicus with 12 samples.

Results

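Crushed rat sciatic nerve treated with low intensity pulsed ultrasound (LIPUS) was compared with crushed nerve given no ultrasound. The comparison takes 6 of the 12 libraries of the series, 3 of the LIPUS group (replicates 2, 6 and 7) against 3 of the Control group (replicates 1, 4 and 9), chosen by the group named in each library's title. All 12 are poly(A) RNA libraries from rats of the Sprague-Dawley strain (SD in the labels) with a crushed sciatic nerve. The Control label names the crush alone and does not mention a vehicle or a sham exposure. The methods describe a crushed group injected with PBS, and whether the Control or the LIPUS nerves had that injection is not known. The LIPUS label adds ultrasound of 1 MHz at 250 mW/cm², unilateral and in vivo, at a 20% duty cycle for 5 minutes a day on 5 days a week over 4 weeks. The remaining 6 libraries are nerves given exosomes of induced pluripotent stem cells, 3 without ultrasound (iPSC-Exos) and 3 with it (iPSC-Exos+LIPUS). Their labels give 10 µL in both groups, at 100 µg/mL in iPSC-Exos+LIPUS and at 103, 104 and 105 µg/mL in iPSC-Exos 2, 3 and 5. The series design names only 100 µg/mL for its exosome group, so whether these labelled concentrations differ in fact is not known. The labels of the libraries give no sex or age, and the series describes male rats aged 5 weeks for its groups without ultrasound. The methods describe nerves taken for RNA a week after surgery and no ultrasound group. Since the labelled ultrasound course is longer, the day on which the LIPUS nerves were taken is not known. A difference in time after the crush and an effect of ultrasound cannot be told apart if the groups were taken on different days.

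A crush cuts axons but leaves the sheath around the nerve in place. Beyond the injury the axons and their myelin break down (Wallerian degeneration), Schwann cells leave the myelinating state and take up a repair state, and macrophages enter and clear debris before axons regrow. LIPUS delivers acoustic pressure in short pulses at an intensity that causes little heating, and is used to stimulate healing of bone and soft tissue.

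The labels name whole brain as the tissue, whereas their extraction protocol names rat sciatic nerve. The table lists genes by Ensembl rat ID, and the files do not pair these IDs with gene names. Of the 30562 IDs, 0 matched the reference table used here, which lists 47357 rat genes without Ensembl IDs. Marker genes of nerve, brain, Schwann cells or macrophages and gene lists of nerve repair were therefore not analysed here, and the tissue label was not checked against markers. In bulk nerve, fewer cells of a type and less RNA per cell cannot be told apart. Nothing in the labels says that the 3 libraries of a group came from separate rats, so the p-values measure the spread between these libraries, which may be technical.

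Total counts were 1336954, 1299862 and 1854545 in Control 1, 4 and 9, and 1251715, 1499813 and 1410294 in LIPUS 2, 6 and 7. A count was found for 8132, 8538 and 7470 IDs in these Control libraries and for 8189, 8554 and 7801 IDs in these LIPUS libraries. Control 9 had the most counts of the 6 libraries and the fewest IDs.

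The ID with the largest share of any library was ENSRNOG00000020644. It held 2.14%, 1.11% and 32.5% of the counts in Control 1, 4 and 9, and 2.25%, 0.391% and 0.539% in LIPUS 2, 6 and 7. The Wilson 95% interval in Control 9 was 32.4% to 32.5%. Control 9 thus stood alone, and the other 5 libraries ran from the 0.391% of LIPUS 6 to the 2.25% of LIPUS 2, with Control 1 and 4 between them. The 10 largest IDs together held 41.1% of the counts of Control 9 and between 12.9% and 13.8% in the other 5 libraries. Scaling by trimmed means (TMM, factors set by the bulk of genes and not by the largest) gave Control 9 a factor of 0.626, against 1.02 to 1.08 in the other 5. CPM, the usual unit of counts relative to library size, takes here the library size multiplied by this factor. On this scale 3 counts, the floor used here, lay between 1.93 CPM in LIPUS 6 and 2.59 CPM in Control 9. Such floors, and the intervals given for shares and count ratios, cover only counting error.

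After a filter on low counts, 4640 genes were tested, which held between 99.2% and 99.6% of the counts of these 6 libraries. The libraries were then compared by the root mean square difference of log2 CPM over these genes. Within LIPUS the 3 pairs lay between 0.59 and 0.60. Within Control the pair of replicates 1 and 4 differed by 0.57, the pair 1 and 9 by 0.87 and the pair 4 and 9 by 0.82. The 9 pairs across the groups averaged 0.65 (0.57 to 0.80), and the 6 such pairs without Control 9 averaged 0.60 (0.57 to 0.63). With Control 9 set aside, a LIPUS and a Control library were about as far apart as a pair of LIPUS libraries. The 5 largest of all 15 distances were those of Control 9.

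**Figure D1:**
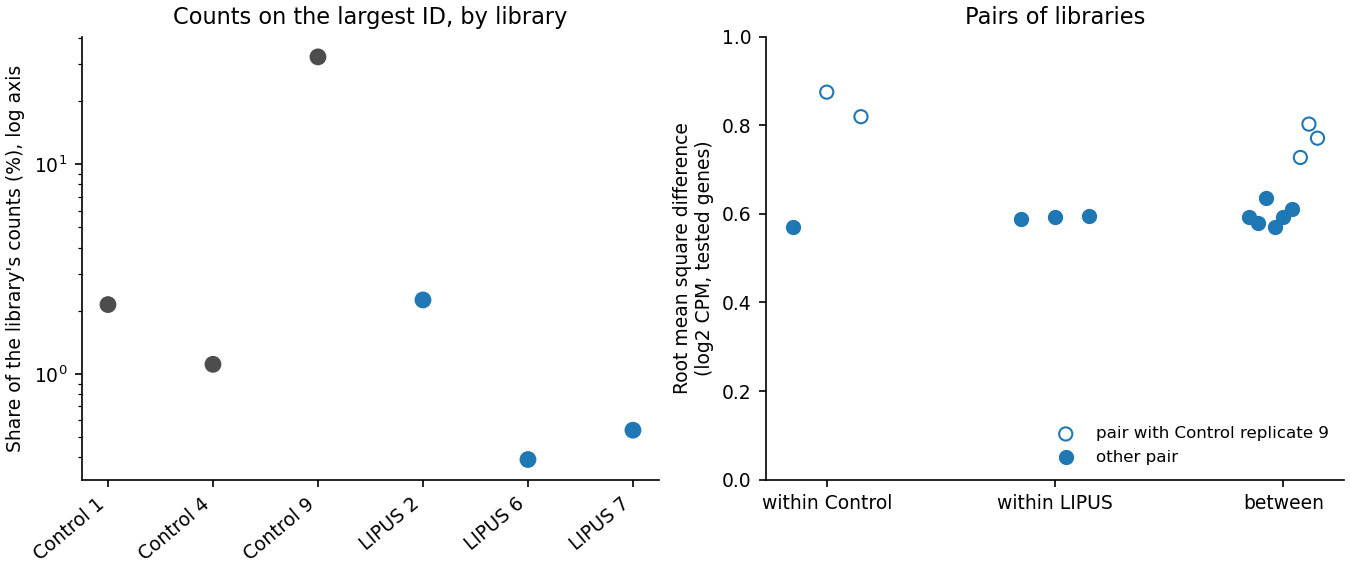
Left, share of each library's counts on the largest ID (percent, log axis), with Control in grey and LIPUS in blue. Right, root mean square difference in log2 CPM for each pair of libraries, with pairs that hold Control 9 as open circles. Pairs without Control 9 sit between 0.57 and 0.63 within and between the groups.

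The typical gene-wise spread between replicates, as a biological coefficient of variation, was 17.5% in LIPUS, 30.3% in Control and 17.7% in Control 1 and 4 alone. It was 22.7% over all 12 libraries and 19.1% without Control 9. Control 9 was the highest or the lowest of the 6 libraries in 57.1% of the tested genes. Control 1 was so in 41.0%, Control 4 in 25.8%, and LIPUS 2, 6 and 7 in 23.4%, 24.7% and 28.1%. More genes thus had an outermost value in Control 9 and in Control 1 than in any LIPUS library.

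LIPUS and Control libraries differed little in most genes. The log2 fold change of LIPUS over Control had a median of -0.02 and a median absolute size of 0.15, and 88.4% of the genes lay within 0.5 of 0. The middle 95% of genes ran from -0.89 to 0.68. An absolute change of 1 or more, a doubling or a halving, was seen in 139 genes (3.0%). Without Control 9 the median absolute size was 0.20, the middle 95% ran from -0.96 to 0.82, and 180 genes reached an absolute change of 1. The median standard error (SE) of a gene's change was 0.26 with and without Control 9, larger than the median absolute change in either setting. A median change under the SE does not show that single genes were unchanged.

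By edgeR's quasi-likelihood test, 0 of the 4640 genes (0%) had an adjusted p under 0.05, and the smallest adjusted p was 0.999. An unadjusted p under 0.05 was seen in 113 genes (2.44%), fewer than the 232 that an even spread of p-values would give. DESeq2, on 14285 genes, found 0 with an adjusted p under 0.05 and 131 (0.917%) with an unadjusted p under 0.05. Without Control 9, edgeR found 0 genes with an adjusted p under 0.05, a smallest adjusted p of 0.635, and 301 genes (6.49%) with an unadjusted p under 0.05. Without Control 1 the adjusted and unadjusted counts were 0 and 242, and without Control 4 they were 1 and 132. The gene that passed without Control 4 had 235 and 240 CPM in Control 1 and 9, 20.2 CPM in Control 4, and 34.1, 24.4 and 19.6 CPM in LIPUS. Other settings also changed the count of 0. In the 6 libraries alone without Control 9, edgeR found 4 genes, with a smallest adjusted p of 0.0288. Without the filter on low counts it found 47 of 14298 genes. A p that misses the threshold does not show that the values did not differ.

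The study's methods set a looser threshold, which takes an unadjusted p of at most 0.05 and a log2 fold change of 0.5 or more in size. At it, 94 genes (2.03%) were called, 32 higher (0.69%) and 62 lower (1.34%) in LIPUS, by edgeR. DESeq2, the tool of the methods, called 45 higher and 70 lower among 14285 genes. These came from a larger set than the 4640 genes of edgeR, so the 2 tools' counts are not directly comparable. Without Control 9 the same threshold called 166 genes (3.58%), 51 higher and 115 lower. Without Control 1 it called 93 higher and 84 lower, so the excess of lower genes was not seen without that library. The calls with and without Control 9 shared 51 genes in the same direction, 54.3% of the 94 and 30.7% of the 166.

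**Figure D2:**
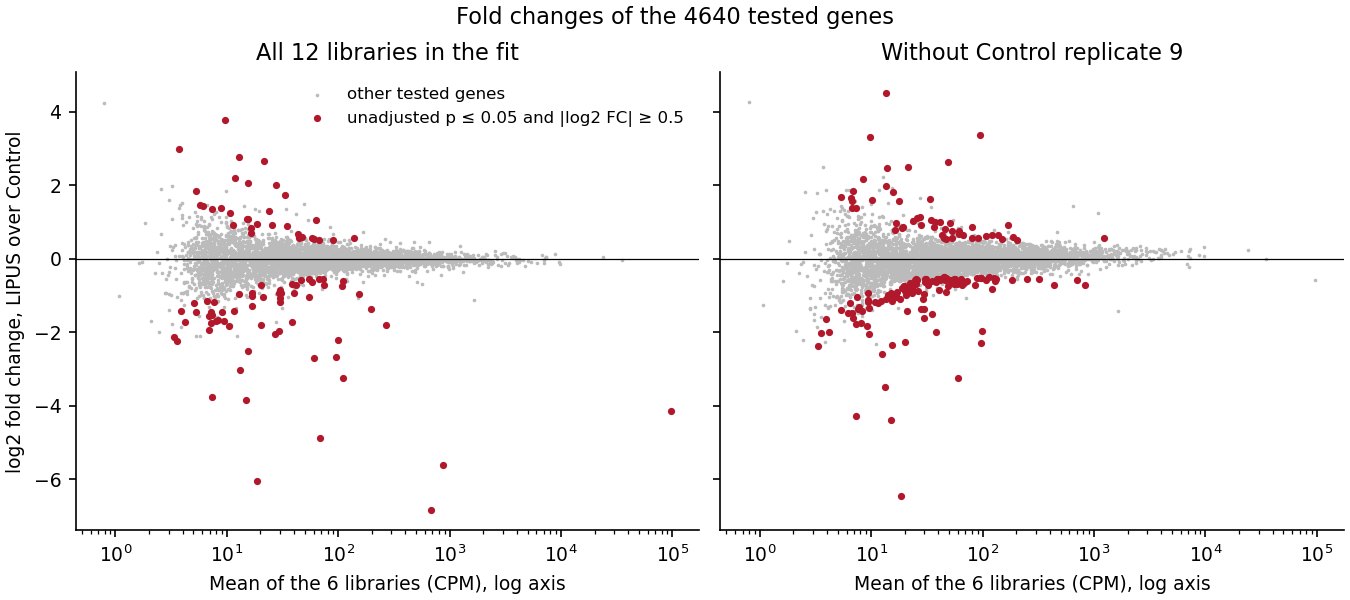
Log2 fold change of LIPUS over Control for each of the 4640 tested genes against its mean level in the 6 libraries (CPM, log axis), with all libraries on the left and without Control 9 on the right. Red points pass the unadjusted threshold, 94 on the left and 166 on the right, and the spread of the grey points narrows as the level rises.

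The 3 LIPUS and 3 Control libraries did not overlap in 259 genes (5.58%), 111 higher and 148 lower in LIPUS. Without Control 9, 1132 genes (24.4%) did not overlap, with 2 Control libraries in place of 3 to lie apart from LIPUS. Both the looser threshold and no overlap were met by 54 of the 4640 tested genes, called consistent here, of which 22 were higher and 32 lower. The smallest adjusted p among them was 0.999 by edgeR. The 22 higher genes had a median log2 fold change of 1.01 (0.51 to 3.78) and a median level of 16 CPM. The 32 lower genes had a median of -1.31 (-0.54 to -3.77) and a median level of 12.2 CPM. Most of these genes were scarce. The tested genes were also split by their mean log2 CPM over all 12 libraries into 4 equal sets of 1160. These level sets therefore do not follow the mean CPM of the 6 libraries gene by gene. ENSRNOG00000003580 at 20.7 CPM was in the lowest set, and ENSRNOG00000003515 at 11.2 CPM was in the second. The consistent genes numbered 28 in the lowest set (2.41% of its genes), 19 in the second (1.64%), 6 in the third (0.517%) and 1 in the highest (0.0862%). Without Control 9, 13 of the 22 higher and 19 of the 32 lower genes still passed the looser threshold.

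The largest consistent shift upward was that of ENSRNOG00000066304. It had 0, 3.61 and 0 CPM in Control 1, 4 and 9 (0, 5 and 0 counts), and 3.88, 45.0 and 5.6 CPM in LIPUS 2, 6 and 7 (5, 70 and 8 counts). LIPUS 6 stood far above the other LIPUS libraries. LIPUS 2 was just above Control 4 at the same 5 counts, so the absence of overlap rests on the library sizes. The means were 1.20 ± 2.08 CPM in Control and 18.2 ± 23.3 CPM in LIPUS (SD, n = 3). The log2 fold change was 3.78 (SE 1.44, 95% interval 0.70 to 6.87), with an adjusted p of 0.999 by edgeR. It was 3.31 without Control 9, 1.85 without LIPUS 6 and 7.68 without Control 4.

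The next was ENSRNOG00000069713, with 2.13, 0 and 0 CPM in Control 1, 4 and 9 (3, 0 and 0 counts), and 14.0, 2.57 and 3.50 CPM in LIPUS 2, 6 and 7 (18, 4 and 5 counts). LIPUS 2 was high, and the other two LIPUS libraries were less than 2 CPM above Control 1. The means were 0.711 ± 1.23 CPM in Control and 6.67 ± 6.32 CPM in LIPUS (SD, n = 3). The ratio of the summed counts per effective library size was 8.31 (counting interval 2.56 to 42.8). The fitted log2 fold change was 2.97 (SE 1.54, 95% interval -0.32 to 6.27) and 2.51 without Control 9, 1.89 without LIPUS 2 and 6.19 without Control 1. This interval, which rests on the SE, spans 0 although the unadjusted p of the quasi-likelihood test met the looser threshold. Without Control 1 here, and without Control 4 for the ID before, every remaining Control library is at 0, so the fitted 6.19 and 7.68 depend on the small count added to 0 and are no bounds.

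The largest consistent shift downward was that of ENSRNOG00000030920. It had 17.8, 21.6 and 1.73 CPM in Control 1, 4 and 9 (25, 30 and 2 counts), and 0.775, 0.643 and 1.40 CPM in LIPUS 2, 6 and 7 (1, 1 and 2 counts). Control 1 and 4 were far above LIPUS, whereas Control 9 was just above LIPUS 7 at the same number of counts. Control 9 and all 3 LIPUS libraries lay under the floor of 3 counts, so at this depth the absence of overlap rests on the library sizes. The means were 13.7 ± 10.6 CPM in Control and 0.939 ± 0.404 CPM in LIPUS (SD, n = 3). The summed counts were 15.4 times higher in Control per effective library size (counting interval 5.71 to 58.6). The log2 fold change was -3.77 (SE 1.44, 95% interval -6.85 to -0.69), with an adjusted p of 0.999 by edgeR, and -4.27 (SE 1.32) without Control 9. In a fit of the 6 libraries alone without Control 9, its adjusted p was 0.0399 by edgeR, within 0.000353 to 1 over its alternatives.

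ENSRNOG00000051237 had 36.3, 10.1 and 32.0 CPM in Control 1, 4 and 9 (51, 14 and 37 counts), and 7.75, 3.86 and 2.10 CPM in LIPUS 2, 6 and 7 (10, 6 and 3 counts). Here Control 9 was close to Control 1, and Control 4 was the Control library nearest to LIPUS. The means were 26.1 ± 14.0 CPM in Control and 4.57 ± 2.89 CPM in LIPUS (SD, n = 3). The log2 fold change was -2.51 (SE 0.73, 95% interval -4.07 to -0.95), with an adjusted p of 0.999 by edgeR, and -2.34 (SE 0.81) without Control 9. All 4 of these IDs belong to the lowest of the 4 level sets. The iPSC-Exos nerves, given exosomes and no ultrasound, averaged 2.20 CPM of ENSRNOG00000051237 and 10.7 CPM of ENSRNOG00000069713. Both means lay further from the Control mean than the LIPUS mean did. For ENSRNOG00000066304 and ENSRNOG00000030920 the iPSC-Exos means were 4.28 and 4.40 CPM, between those of Control and LIPUS. The iPSC-Exos and Control levels of these IDs were not tested against each other.

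The largest ID was not among the consistent ones. ENSRNOG00000020644 had 20348, 10421 and 520382 CPM in Control 1, 4 and 9, and 21860, 3766 and 5317 CPM in LIPUS 2, 6 and 7. LIPUS 2 was above Control 1 and 4, so the groups overlapped. Its log2 fold change was -4.15 (SE 1.09) with Control 9 and -0.58 (SE 0.74, 95% interval -2.16 to 1.00) without it. Among the 11 tested genes with an absolute change of 3 or more, 9 were lower in LIPUS. Control 9 was the highest of the 6 libraries in 5 of the 11, beside 1344 of all 4640 tested genes.

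A fit without the filter on low counts gave 47 of 14298 genes an adjusted p under 0.05 by edgeR, among them ENSRNOG00000066304, ENSRNOG00000030920, ENSRNOG00000051237 and ENSRNOG00000020644. That fit took each gene's spread from the trend over all genes alone (infinite prior degrees of freedom), whereas the fit of the 4640 genes had 6.07 prior degrees of freedom.

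**Figure D3:**
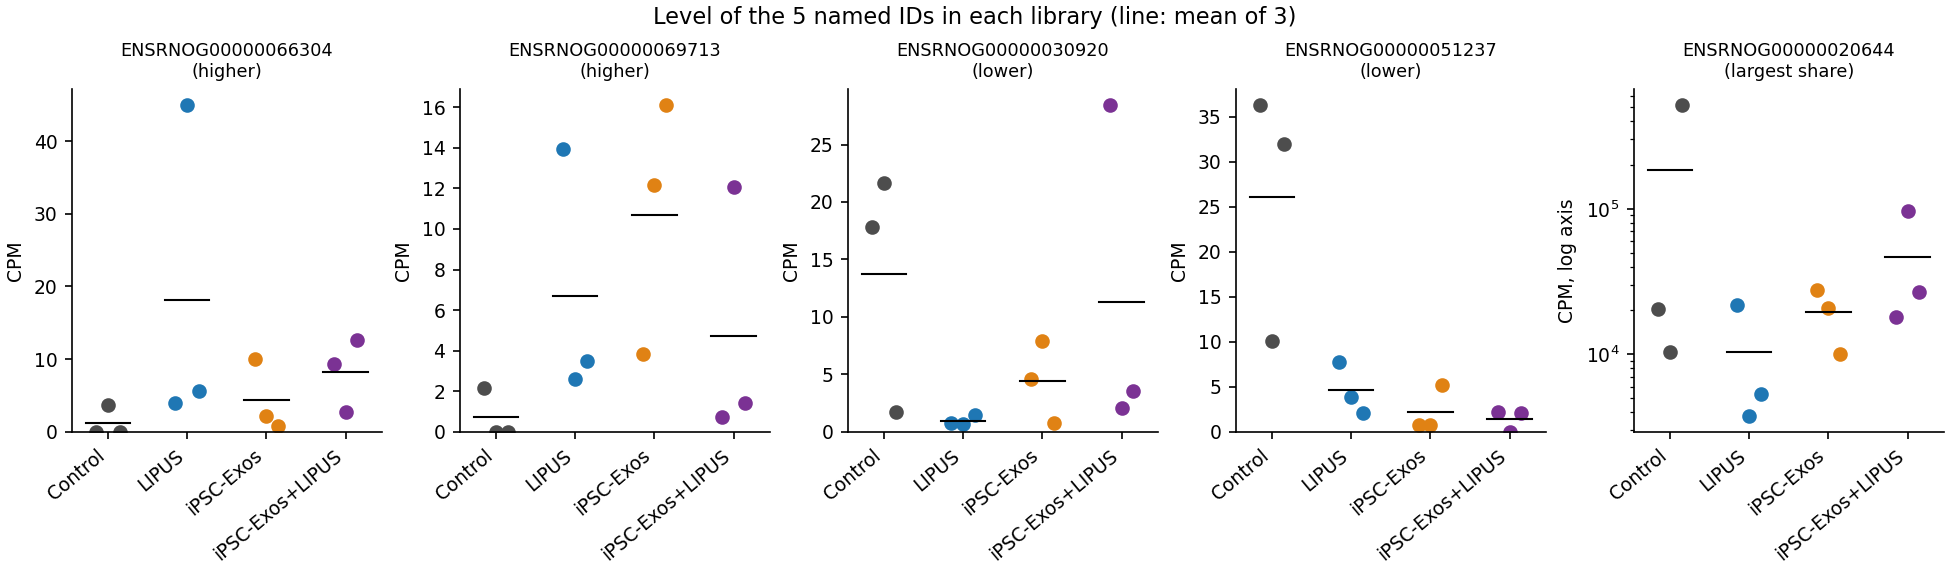
Level in CPM of the 5 named IDs in each of the 12 libraries, 1 point a library, with a line at the mean of each group of 3 and a log axis for the largest ID. Single libraries stand out in most panels, such as LIPUS 6 at 45.0 CPM in the first and Control 9 at 520382 CPM in the last.

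Among consistent genes above 20 CPM the shifts were smaller. The 8 higher ones ran from 0.51 to 1.30 and the 13 lower ones from -0.54 to -2.21 on the log2 scale. The gene at the lower end of that range had 59.0, 215 and 214 CPM in Control 1, 4 and 9, and 45.7, 31.5 and 28 CPM in LIPUS 2, 6 and 7. Control 4 and 9 stood well above the rest, and Control 1 was nearer to LIPUS 2 than to them. The most abundant consistent gene had 118, 90.9 and 125 CPM in Control 1, 4 and 9, and 176, 134 and 180 CPM in LIPUS 2, 6 and 7. Here LIPUS 6 was the LIPUS library nearest to Control. The log2 fold change was 0.55 (SE 0.17), and 0.64 without Control 9.

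The smallest change that the design could detect was taken from each gene's SE, as the true log2 fold change found with 80% power. At p 0.05 for 1 gene alone, its median over the tested genes was 0.78 with Control 9 and 0.78 without it, a 1.72-fold change in both. At p 0.05 divided by all 4640 genes, stricter than the Benjamini-Hochberg adjustment once several genes change, it was 2.05 (4.14-fold) with Control 9 and 2.06 (4.17-fold) without it. Leaving out Control 9 lowers the spread but also the number of Control libraries to 2, and the medians hardly moved. These limits draw on the spread within all 12 libraries. With the spread taken from the 6 libraries alone, the medians were 0.86 for 1 gene and 2.67 over all genes, and without Control 9 0.80 and 2.38.

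The detectable change depended strongly on level. In the lowest of the 4 level sets (median 8.99 CPM, or 12.3 counts a library), the median for 1 gene was 1.66 with and 1.77 without Control 9. In the second set (31.8 CPM) it was 0.94 and 0.96, in the third (91.4 CPM) 0.61 and 0.60, and in the highest (360 CPM) 0.45 and 0.41. Over all genes, these medians were 4.33 and 4.68, 2.45 and 2.54, 1.60 and 1.58, and 1.17 and 1.08. Scarce genes therefore needed a change of 20.1-fold in the median at p 0.05 shared over all genes, and leaving out Control 9 lowered the limit only in the upper sets.

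The median absolute change seen with Control 9 was 0.35, 0.20, 0.12 and 0.07 from the lowest to the highest set, and without it 0.39, 0.23, 0.17 and 0.12. In each set this was below the change detectable for 1 gene. A median over genes falls below that limit unless a large part of the genes change strongly, so no conclusion is drawn from this. A doubling in 1 gene alone was within reach in 2933 genes (63.2%) with Control 9 and in 2905 without it. At p 0.05 shared over all genes a doubling was within reach in 259 genes (5.58%) with Control 9 and in 413 (8.90%) without it, and a 4-fold change in 2254 (48.6%) and 2241.

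**Figure D4:**
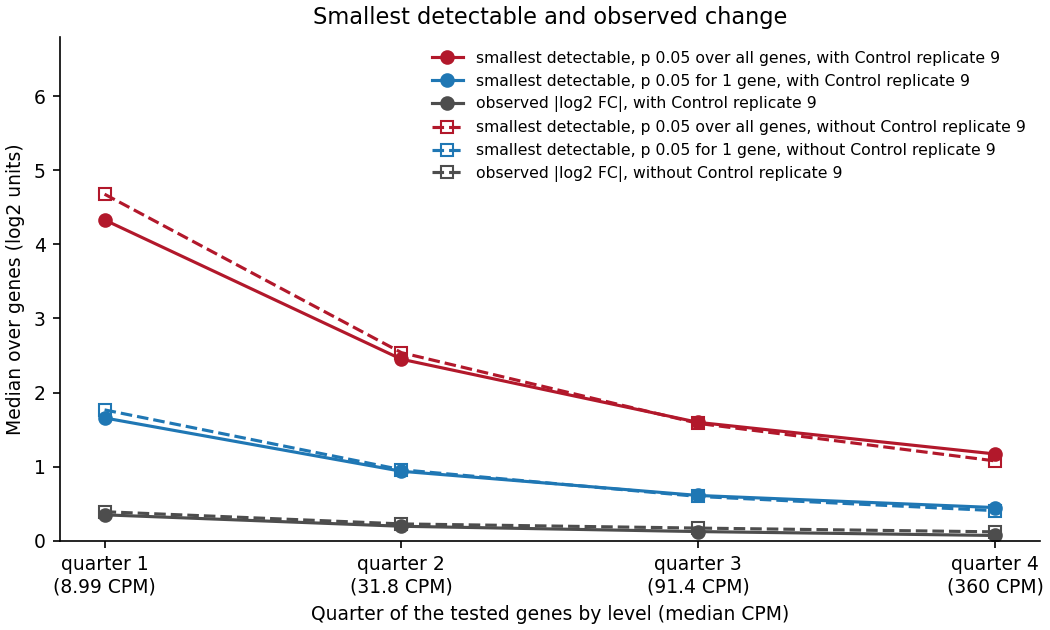
Median smallest detectable change and median observed absolute change (log2 units) in the 4 level sets of 1160 genes, with Control 9 (filled, solid) and without it (open, dashed). At p 0.05 shared over all genes the detectable change with Control 9 falls from 4.33 in the lowest set to 1.17 in the highest, and the observed change from 0.35 to 0.07.

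The intervals give the same limits gene by gene. With Control 9, the 95% interval lay within 1 of 0 in 3078 genes (66.3%), so that a doubling or a halving lay outside it in these genes taken singly. The share was 5.78% in the lowest set, 66.6% in the second, 94.6% in the third and 98.4% in the highest. Without Control 9 it was 62.8% of all genes, from 3.02% in the lowest to 97.8% in the highest set. With Control 9, the interval lay wholly beyond 0.5 on either side in 19 of the 4640 genes. These intervals are not adjusted for the number of genes, and 0 genes had an adjusted p under 0.05 by edgeR.

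The exosome arm holds an ultrasound contrast in 6 other libraries. These do not enter the LIPUS and Control levels, but they share in the estimate of the spread behind the SEs and p-values that chose the 54 consistent genes. There, iPSC-Exos+LIPUS against iPSC-Exos called 186 genes (4.01%) at the looser threshold. Of the 54 consistent genes, 31 (57.4%) had the same sign in that arm, beside 49.0% of all 4640 tested genes. The 22 higher genes had a median log2 fold change of 0.11 there (12 of 22 with the same sign), and the 32 lower genes one of -0.07 (19 of 32). In each direction 1 of the consistent genes also passed the looser threshold there. The iPSC-Exos+LIPUS and iPSC-Exos libraries did not overlap in the same direction in 2 of the higher and 2 of the lower genes. In the opposite direction these counts were 3 and 3. The share of all tested genes without overlap in that arm is not given here, so no conclusion is drawn from these counts. Of all 94 genes at the looser threshold 48 (51.1%) had the same sign, and the 62 lower ones had a median of 0.15 in that arm. Across the 4640 genes, which are not independent replicates, the changes in the 2 arms had a Pearson r of -0.078 and a Spearman rho of -0.025. Without Control 9 these were -0.041 and 0.021.

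The difference between the 2 ultrasound contrasts was tested as an interaction in edgeR. An adjusted p under 0.05 was found for 0 genes and an unadjusted p under 0.05 for 196 (4.22%). Without Control 9 these counts were 0 and 330 (7.11%), and DESeq2 on its larger set of genes gave 0 and 221 (1.55%). Of the 4 named IDs, ENSRNOG00000066304 had a log2 fold change of 0.93 (SE 1.11) in the exosome arm and ENSRNOG00000069713 one of -1.15 (SE 0.94). ENSRNOG00000030920 had 1.33 (SE 1.00) and ENSRNOG00000051237 had -0.63 (SE 1.11). The first and the last thus kept their sign and the other two did not. In ENSRNOG00000030920 the sign goes with iPSC-Exos+LIPUS 1 at 28.4 CPM, beside 2.01 and 3.51 CPM in replicates 2 and 3 and 4.60, 7.86 and 0.732 CPM in iPSC-Exos. In ENSRNOG00000051237 iPSC-Exos 5 had 5.12 CPM, and the other 5 libraries of that arm had 0 to 3 counts. For ENSRNOG00000030920 and ENSRNOG00000051237 the sign therefore rests on a single library, and for the latter also on few counts. The difference between the contrasts was -4.12 (SE 1.80) for ENSRNOG00000069713 and 5.10 (SE 1.75) for ENSRNOG00000030920, with adjusted p of 0.999 and 0.767 by edgeR. All 4 IDs were chosen for the size of their change in LIPUS against Control, which enters this difference.

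**Figure D5:**
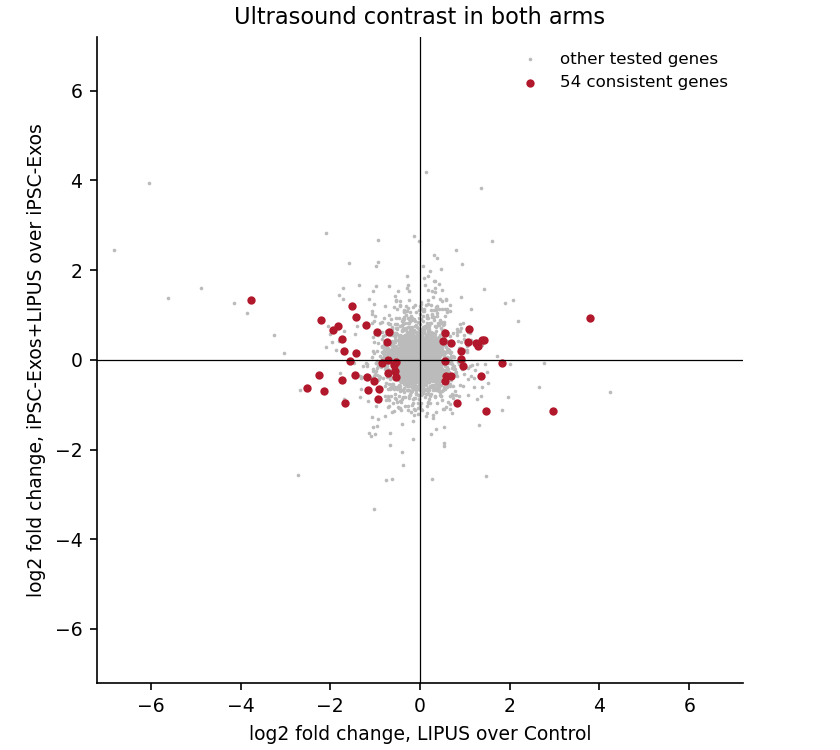
Log2 fold change of iPSC-Exos+LIPUS over iPSC-Exos against that of LIPUS over Control for the 4640 tested genes, with the 54 consistent genes in red. Of these, 31 had the same sign on both axes.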

How the data were processed

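Poly(A) RNA of 12 libraries was sequenced. According to the labels' processing notes, reads were trimmed with Trimmomatic (version 0.38) and aligned with HISAT2 (version 2.0.5) to Rnor_6.0, with SAMtools and StringTie also named. The counting tool and the annotation release behind the IDs are not given in the sources used here, and whether the IDs belong to that build was not checked. The authors deposited raw counts per gene, and every column was matched to a library by name.

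Counts were filtered with filterByExpr, scaled with TMM factors and analysed by the quasi-likelihood test of edgeR (version 4.0.16; R version 4.3.3), with a mean for each of the 4 groups over all 12 libraries and Benjamini-Hochberg adjustment. SEs come from the quasi-likelihood variance and the inverse Fisher information, and detectable changes from these by a noncentral t distribution. Fits without Control 9 kept the 4640 genes. Counting intervals of ratios are exact binomial 95% intervals. For distances, a prior count of 2 was added before taking log2 CPM. Steps were tested on simulated data with a common spread for all genes and no outlying library. That setting differs from these data, so it does not check the intervals or detectable changes against a library such as Control 9.

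All libraries carry 1 batch label. Replicates within Control and within LIPUS differed by more than sampling noise (chi-square over its degrees of freedom 5.10 to 115). None of these libraries was therefore taken as a library deposited again. The iPSC-Exos and iPSC-Exos+LIPUS libraries were not compared in this way. By the rule for naming, a pair of IDs in each direction was taken by size of change among the consistent genes, with the largest ID added. Alternatives were DESeq2 (version 1.42.0), RLE and upper quartile factors, other filters, other sets of libraries, a robust prior, leaving out the largest ID and leaving out each library in turn. The libraries, lists and rules were chosen with earlier results of these data known.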

Additional observations from a re-analysis of the deposited data

How the results depend on the processing

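The adjusted count of 0 was also found with RLE factors, upper quartile factors, the 6 libraries alone, a robust prior, at least 10 counts in every library, the largest ID left out, and DESeq2. Without a filter on low counts, 14298 genes gave 47 with an adjusted p under 0.05, 348 with an unadjusted p under 0.05, 137 higher and 183 lower at the looser threshold, a median absolute log2 fold change of 0.41, detectable changes of 5.40 for 1 gene and 10.6 over all genes, and 64 genes in the interaction. Of the 47, 41 are among the 4640. Prior degrees of freedom were infinite there and 5.74 to 7.88 in the other edgeR alternatives, and their part in the 47 was not tested. The adjusted p was 6.57e-05 for ENSRNOG00000066304, 0.00792 for ENSRNOG00000051237 and 7.32e-189 for ENSRNOG00000020644, each the lowest over its alternatives, which run up to 1. Requiring 10 counts in every library left 3533 genes, with 70 at an unadjusted p under 0.05, 18 higher and 36 lower. In the 6 libraries alone without Control 9, 4 genes passed the adjustment (smallest adjusted p 0.0288, all lower in LIPUS, Control 9 low in each), 314 had an unadjusted p under 0.05, 54 were higher and 101 lower. ENSRNOG00000030920 was among them (adjusted p 0.0399; 0.000353 to 1 over its alternatives). Leaving out the largest ID and Control 9 together, chosen after seeing the data, gave 308, 53 and 110. DESeq2, on 14285 genes, gave a median absolute change of 0.42 and a detectable change of 6.0. Leaving out each of the 12 libraries gave 0 to 1 adjusted calls, 101 (without LIPUS 7) to 301 (without Control 9) unadjusted, 28 (without LIPUS 6) to 93 (without Control 1) higher and 58 to 115 (without Control 9) lower. No named ID changed sign under its alternatives. No paired analysis was possible because the LIPUS (2, 6 and 7) and Control (1, 4 and 9) libraries share no replicate number.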

Other observations

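Of the 12399 IDs with a count in the 6 libraries, 37 (0.298%) had a count in all 3 LIPUS libraries and in no Control library, with at most 12 counts summed over LIPUS. The reverse, a count in all 3 Control libraries and in no LIPUS library, was seen in 46 IDs (0.371%), with at most 13 counts summed over Control. In both sets the median ID had 5 counts in all. With Control 9 set aside, the sets held 69 IDs (0.556%) for LIPUS and 168 (1.35%) for Control. The Control set then needs a count in only 2 libraries and the LIPUS set in 3, so these sizes are not comparable.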
